A study of Macaca mulatta and Mus musculus and Rattus norvegicus with 12 samples.

Results

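The genes described here encode the proteins of the mitochondrial respiratory chain that come from the cell nucleus. They were taken by symbol: all rows whose gene symbol, in upper case, started with NDUFA, NDUFB, NDUFC, NDUFS or NDUFV and a digit, with UQCR, with COX4 to COX8 or with ATP5, or was SDHA, SDHB, SDHC or SDHD. This took 88 of 38599 symbols in mouse, 94 of 35259 in rat and 43 of 28641 in rhesus macaque, 103 different symbols in all, of which 40 stood in all 3 tables. They held 1.27% of the mouse reads, 1.20% of the rat reads and 0.622% of the macaque reads. In mouse, 73 of the 88 were general subunits, 7 were isoforms of a restricted tissue, 4 were pseudogenes or copies by their symbol and 4 were no subunits. The corresponding numbers were 74, 6, 10 and 4 in rat, and 40 general subunits, 1 isoform and 2 that were no subunits in macaque.

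The samples were osteocyte-enriched bone from the calvaria (skull vault) and the tibia, osteocytes being the cells that lie inside mineralised bone. The mice were C57BL6 animals of 4 months, with M4 and M8 as the 2 libraries of calvaria and M5 and M7 as those of tibia, each a pool of 3 animals. The rats were Wistar animals of 6 months, with 1 calvaria library (R1) and 1 tibia library (R3), each a pool of 2 animals, so that rat values have no replicates. The macaques were labelled 4 to 6 months, whereas the methods give their age in years. G1, G3 and T1 were the 3 libraries of calvaria and G2, G4 and T2 those of tibia, 1 animal each. No animal was treated or genetically altered, periosteum was removed from all bones, and surface cells were digested off with collagenase. In the methods, rodent tibias were spun free of marrow, the rodent skulls were cut so as to avoid marrow spaces, and no such step is described for macaque.

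The respiratory chain sits in the inner mitochondrial membrane. Complex I (NADH dehydrogenase, the NDUF genes) and complex II (succinate dehydrogenase, the SDH genes) feed electrons into it, complex III (the UQCR genes) passes them to cytochrome c, and complex IV (cytochrome c oxidase, the COX genes) hands them to oxygen. Complex V (the ATP5 genes) is the ATP synthase, which uses the proton gradient that the others build. Some subunits of complexes I, III, IV and V are encoded by the mitochondrial DNA and are not among these genes. A few complex IV subunits have isoforms, for striated muscle (COX6A2, COX7A1, COX8B), for testis (COX6B2, COX7B2, COX8C), or for lung and low oxygen (COX4I2). Osteocytes sit in narrow spaces of the matrix, away from blood vessels.

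Library depth, counted as reads on rows naming a gene, ranged from 13934813 to 16826535 for mouse and from 7951585 to 10342459 for macaque, and was 14255423 for R1 and 12233256 for R3. Levels below are CPM (counts scaled to a common library total), scaled by TMM factors in mouse and macaque and by library size alone in rat. All changes are log2 of calvaria over tibia, with the standard error (SE) of edgeR's quasi-likelihood fit. A gene was called at an adjusted p under 0.2 and a fold change over 1.1, after Benjamini-Hochberg adjustment over all symbols with at least 1 read in every library of the species. Of the genes of the chain, 85 of 88 passed this filter in mouse, 88 of 94 in rat and 39 of 43 in macaque. The genes that did not pass had few or no reads: ATP5L-PS1, COX7B2 and COX8C had at most 4 in a mouse library, ATP5F1, COX6C-PS1, COX7B2, COX8C, NDUFA1 and NDUFB4L1 had 0 in rat, and NDUFA10, NDUFA5, NDUFB3 and UQCRFS1 had at most 14 in a macaque library.

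Most of these genes are short. The share with an exonic length under 1000 bases was 62.5% in mouse, 68.1% in rat and 55.8% in macaque, against 10.5%, 11.7% and 14.5% of all symbols that passed the filter. Short genes of the mouse set are shown because the change between sites was related to length (below) and both were among the 3 mouse genes with the smallest p-values in the direction of calvaria. Atp5e encodes the epsilon subunit of the ATP synthase head and lies on the minus strand at chr2:174461072-174464105 of GRCm38. Uqcr11 encodes a small accessory subunit of complex III and lies on the minus strand at chr10:80402997-80406830. The coding sequences, with start and stop codons in capitals, are from the GENCODE vM21 transcripts, of 421 bases and 3 exons for Atp5e and 445 bases and 3 exons for Uqcr11. They take 159 and 171 bases of those transcripts.
Atp5e: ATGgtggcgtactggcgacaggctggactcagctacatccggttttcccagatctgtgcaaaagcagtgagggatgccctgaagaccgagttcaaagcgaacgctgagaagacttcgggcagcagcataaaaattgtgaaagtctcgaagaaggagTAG
Uqcr11: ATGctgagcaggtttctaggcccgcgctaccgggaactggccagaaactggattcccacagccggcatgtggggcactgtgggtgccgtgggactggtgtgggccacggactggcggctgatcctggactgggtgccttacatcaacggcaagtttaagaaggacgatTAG

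In macaque, genes of the chain were higher in calvaria, and most of the calls depended on whether gene length was taken into account. By edgeR's quasi-likelihood test 12 of 39 were called, all 12 higher in calvaria, which is 30.8% against 14.8% of all 13094 symbols. When a smooth trend of exonic length was taken out of each library (the length offset), 5 of these 12 were still called, which is 12.8% against 12.6% of all symbols. The calls of NDUFA4, NDUFA9, UQCR, UQCRB, UQCRQ, COX6B1 and ATP5G3 ended with it. None was called higher in tibia, against 14.0% of all symbols. In either direction 28.8% of all symbols were called. Of the 36 general subunits alone, 11 were called higher in calvaria, and 4 with the length offset. The change was above 0 for 37 of the 39, with a median of 0.41 against -0.0027 over all symbols. The libraries did not overlap between sites for 10 of the 39, all 10 higher in calvaria (25.6%, against 16.5% of all symbols), and the share of all symbols without overlap in the direction of tibia was 15.8%. In whole bone, more cells of a type and more RNA per cell cannot be told apart.

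The ATP synthase gene ATP5E gave the largest change of the 39. Its normalized CPM was 735, 1112 and 1065 in calvaria (G1, G3, T1) and 470, 496 and 624 in tibia (G2, G4, T2). Every calvaria value lay above every tibia value, with a change of 0.87 (SE 0.20, adjusted p = 0.0179 by edgeR's quasi-likelihood test). ATP5L, a membrane subunit of the synthase, had 274, 446 and 357 CPM in calvaria and 183, 182 and 267 in tibia, again without overlap. Its change was 0.77 (SE 0.22, adjusted p = 0.0427 by edgeR). ATP5G3 encodes the c ring, the rotor of the synthase, as do ATP5G1 and ATP5G2, and of these it alone was called. ATP5G1 changed by 0.52 (SE 0.29, adjusted p = 0.277 by edgeR) and was called with the pair block described below (adjusted p = 0.102 by edgeR). ATP5G3 stood at 55.6, 59.1 and 40.5 CPM in calvaria against 41.0, 30.1 and 40.7 in tibia, where T1 fell among the tibia libraries, a change of 0.47 (SE 0.21, adjusted p = 0.165 by edgeR, and 0.243 with the length offset). The head subunits ATP5A1 and ATP5B were not called: ATP5A1 changed by 0.29 (SE 0.16, adjusted p = 0.274 by edgeR) and ATP5B by 0.09 (SE 0.16, adjusted p = 0.757 by edgeR). In all, 3 of 12 complex V genes were called higher in calvaria, where 14.8% of all symbols were. Of the 12, 11 were above 0, with a median of 0.34.

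Complex III had 4 of 6 genes called higher in calvaria, where 14.8% of all symbols were. All 6 were above 0, with a median of 0.50. With the length offset UQCRH alone of these was called, at a median of 0.31 for the 6, and with the pair block described below all 6 were. UQCRH, the hinge protein by the cytochrome c site, had 112, 150 and 130 CPM in calvaria and 73.1, 80.7 and 97.6 in tibia. Its libraries did not overlap, and the change was 0.64 (SE 0.17, adjusted p = 0.0362 by edgeR). UQCRB, an accessory subunit, had the highest level of complex III per length (495 CPM per kilobase), at 580, 879 and 747 CPM in calvaria and 500, 492 and 575 in tibia. Its change was 0.49 (SE 0.18, adjusted p = 0.109 by edgeR), and T2 came within a small margin of G1 without overlap. UQCRQ and UQCR, an older symbol of UQCR11, were called with changes of 0.51 and 0.69 (SE 0.22 and 0.32), while T2 overlapped the calvaria values in both. The large core proteins UQCRC1 and UQCRC2 were not called, at 0.47 and 0.29, but were with the pair block (adjusted p = 0.123 and 0.184 by edgeR).

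In complex I, 3 of 15 genes were called higher in calvaria, where 14.8% of all symbols were. Of the 15, 14 were above 0, with a median of 0.33. NDUFA1, a membrane arm subunit, had 295, 404 and 413 CPM in calvaria and 215, 207 and 282 in tibia, a change of 0.66 (SE 0.19, adjusted p = 0.0442 by edgeR) without overlap. NDUFA9, another accessory subunit, changed by 0.44 (SE 0.20, adjusted p = 0.193 by edgeR) and also did not overlap. NDUFA4 is named for complex I but is a subunit of complex IV. It had 32.1, 27.9 and 28.7 CPM in calvaria and 17.9, 15.6 and 27.9 in tibia, where T2 was as high as G3, and changed by 0.53 (SE 0.24, adjusted p = 0.190 by edgeR). The calls of NDUFA9 and NDUFA4 ended with the length offset (adjusted p = 0.293 and 0.515 by edgeR). The core subunits NDUFS1, NDUFS8 and NDUFV2 were not called, at 0.17, 0.54 and 0.21 (SE 0.27, 0.68 and 0.36), though NDUFS8 was with the pair block (adjusted p = 0.108 by edgeR). Core NDUFS3, under a LOC number, was called higher in calvaria at 0.40 (SE 0.18, adjusted p = 0.181 by edgeR), and not with the length offset (0.16, adjusted p = 0.606 by edgeR). NDUFS5 had the highest level per length in complex I (1197 CPM per kilobase) and changed by 0.41 (SE 0.21, adjusted p = 0.229 by edgeR, and 0.0879 with the pair block). NDUFS4 was the complex I gene below 0, at -0.29 (SE 0.20, adjusted p = 0.399 by edgeR).

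Complex IV had 4 genes under the rule's symbols in macaque. COX6B1, an accessory subunit facing the space between the membranes, had 115, 146 and 167 CPM in calvaria and 89.1, 95.2 and 95.4 in tibia, a change of 0.61 (SE 0.17, adjusted p = 0.0370 by edgeR, and 0.227 with the length offset) without overlap. The other called row, COX4NB, encodes a protein named for its place beside COX4 (EMC8) and no respiratory chain subunit. It changed by 0.58 (SE 0.15, adjusted p = 0.0326 by edgeR). COX5A (0.57, SE 0.29) and COX7AH, an older symbol of the muscle isoform COX7A1 (0.39, SE 0.28), were not called, though COX5A was with the pair block (adjusted p = 0.0962 by edgeR). Of complex II, SDHB changed by 0.28 (SE 0.15, adjusted p = 0.251 by edgeR) and stood without overlap. SDHD had at most 4.03 CPM and changed by 0.71 (SE 0.48, adjusted p = 0.381 by edgeR).

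**Figure D1:**
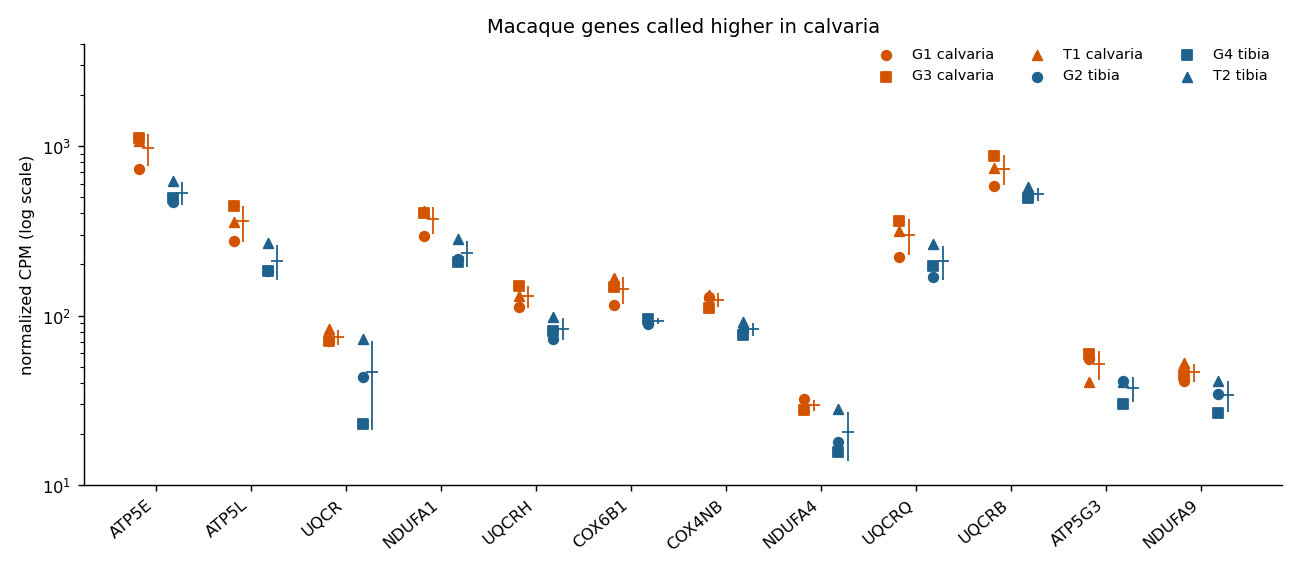
Normalized CPM on a log scale of the 12 macaque genes called, with 1 point per library and mean ± SD to the right of the points for calvaria (orange, n = 3) and tibia (blue, n = 3). For ATP5E the calvaria libraries sit between 735 and 1112 CPM and the tibia libraries between 470 and 624, and among the tibia libraries T2 is the highest for every gene except ATP5G3.

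T2 lay nearest to calvaria among the tibia libraries. The median deviation of the 39 genes from their mean over libraries was 0.019 in G1, 0.22 in G3 and 0.32 in T1, against -0.26 in G2, -0.40 in G4 and 0.10 in T2, so that T2 stood above G1. Without T2, 28 genes were called, all higher in calvaria, where 19.3% of all symbols were. Only 6 were called without G2 or without G3 and 7 without G4, with the shares of all symbols not given here. The letters G and T in the sample names also separated some genes: ATP5O, the stalk subunit, had 609 and 527 CPM in T1 and T2 against 199 to 353 in the other 4 libraries. NDUFS8 had 22.7 and 18.8 CPM in T1 and T2, 15.7 and 8.0 in G1 and G2 and 3.9 and 2.2 in G3 and G4. By the methods both bones came from the same animals, and neither the methods nor the labels name the pairs. When G1 and G2, G3 and G4, and T1 and T2 were taken as pairs and entered as a block, 22 genes were called, all higher in calvaria (56.4%, against 18.9% of all symbols). With the letter as a batch the number was also 22, all higher in calvaria, where 18.6% of all symbols were. Scaling by library size alone lowered the median of all symbols to -0.21, and 7 of the 39 were called, 6 of them higher in calvaria, with a median of 0.21. Under that scaling 9.66% of all symbols were called higher in calvaria.

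Markers of marrow cells moved with site in macaque, and summed levels of neutrophil markers lay the same way in both rodents. Summed levels of B cell markers did not. Of the red cell list, 3 of 13 markers passed the filter and all 3 were called higher in calvaria, with a summed level of 25160 to 36760 CPM against 6824 to 9823 in tibia. Of the neutrophil list, 7 of 11 passed and 6 were called higher in calvaria, with 36230 to 60590 CPM against 7238 to 14230. The osteocyte list had 5 of 9 markers passing, 5096 to 5934 CPM in calvaria against 7662 to 17160 in tibia, with 1 called in each direction. None of the markers in these 3 lists that stood in the table was without reads in all libraries. In mouse, neutrophil markers summed to 93700 to 128500 CPM in calvaria and 58830 to 66550 in tibia, with all 11 above 0 and 0 called. Mouse red cell sums overlapped between sites, at 34960 to 74510 and 37480 to 53240 CPM, with all 8 above 0. In rat, neutrophil markers summed to 84060 CPM in R1 and 45500 in R3, with 9 of 11 above 0. Rat red cell markers summed to 103600 and 59380 CPM, with all 9 above 0. Of the B cell list, 3 of 7 markers passed in macaque and all 3 were called higher in calvaria. Their sums were 45.09 to 50.8 CPM in calvaria against 11.16 to 23.75 in tibia. Mouse B cell markers summed to 232.7 to 248.5 CPM in calvaria and 255.7 to 262.5 in tibia, with 2 above 0, 5 below and 0 called. Rat ones summed to 299.8 CPM in R1 and 436.8 in R3, though 4 of the 5 passing were above 0. The part of these cells in the levels of the chain's genes was not tested in any species.

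Among the macaque rows, 37 carry a LOC number whose RefSeq symbol meets the rule, and 32 of these genes, absent under their own symbol, could be tested when the RefSeq names were used (a choice made after the data were seen). Of these 32, 14 were called, all higher in calvaria, and 26 were above 0, with a median of 0.48. Over both kinds of row, 26 of 72 genes were called higher in calvaria, where 14.8% of all symbols were. They included COX8A, a small complex IV subunit, with 87.1, 115 and 75.8 CPM in calvaria and 59.9, 57.8 and 46.7 in tibia (change 0.76, SE 0.19, adjusted p = 0.0272 by edgeR), and NDUFA2 (change 0.86, SE 0.24, adjusted p = 0.0394 by edgeR). SDHA, the flavoprotein of complex II, was at -0.23 (SE 0.14, adjusted p = 0.318 by edgeR) and, with the length offset, was called higher in tibia at -0.46 (adjusted p = 0.0648 by edgeR).

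In mouse, no gene of the chain was called. The quasi-likelihood test called 0 of 85, where it called 0.0836% of all 16740 symbols. Its unadjusted p was under 0.05 for 9 of the 85 and for 1256 of the 16740 symbols. The change was above 0 for 67 of 85, with a median of 0.25 against 0.054 over all symbols. The calvaria libraries lay above the tibia libraries without overlap for 44 of 85 genes (51.8%, against 20.1% of all symbols), and below them for 6 (7.06%, against 20.0%). The median deviation of the genes was 0.17 in M4 and 0.054 in M8, against -0.20 in M5 and -0.044 in M7. Other tests of the same counts called 4 genes, COX4I2, NDUFA4L2, NDUFB7 and ATP5E: the exact test of edgeR, which called 2.52% of all symbols, and DESeq2, which called 2.46%. Leaving out M4 gave 30 calls among the 85, 25 of them higher in calvaria, and leaving out M8 gave 32, 28 of them higher in calvaria, and these fits called 42.0% and 19.4% of all symbols. Those fits hold 1 calvaria library, assumed to vary like the tibia libraries, and leaving out M5 or M7 gave 0 calls.

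The largest mouse changes were toward tibia and came from a pair of genes linked to low oxygen. COX4I2, which takes the place of COX4I1 in complex IV of some cells, had 2.57 and 2.82 CPM in M4 and M8 and 12.2 and 18.1 in M5 and M7. Its change was -2.49 (SE 0.36), with an adjusted p of 0.271 by edgeR's quasi-likelihood test, 3.18e-05 by edgeR's exact test and 1.20e-05 by DESeq2. NDUFA4L2, the hypoxia-induced relative of NDUFA4, had 4.68 and 3.05 CPM in calvaria and 16.8 and 20.2 in tibia. Its change was -2.25 (SE 0.34), with an adjusted p of 0.286, 7.88e-05 and 4.24e-05 by the edgeR quasi-likelihood, edgeR exact and DESeq2 tests. Neither gene overlapped between sites. Their common counterparts did not share this direction: COX4I1 had 924 and 975 CPM in calvaria and 704 and 727 in tibia (change 0.41, SE 0.21), and NDUFA4 had 81.5 and 72.6 against 60.8 and 70.6 (change 0.23, SE 0.20).

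Rat gave the same direction for both. COX4I2 had 128 reads in R1 and 1484 in R3, a log2 ratio of -3.75 (95% counting interval -4.03 to -3.50), and NDUFA4L2 had 9 and 65 reads, a ratio of -2.94 (-4.27 to -2.06). COX4I1 had 12387 and 9733 reads, a ratio of 0.13. In macaque COX4I2 stood under a LOC number, with 15.7, 8.95 and 16.3 CPM in G1, G3 and T1 and 20.4, 3.78 and 28.7 in G2, G4 and T2. The sites overlapped and the change was -0.37 (SE 0.54, adjusted p = 0.709 by edgeR).

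Summed levels of some other gene lists were also higher in the rodent tibia libraries, though in mouse only 1 of their members was called. A list of 14 genes induced by low oxygen had 13 members passing in mouse, all 13 below 0 and 1 called (NDRG1, higher in tibia), with a summed level of 831 to 963 CPM in calvaria and 2191 to 2846 in tibia. In rat all 13 were below 0 and 4 were past a log2 ratio of 2, with summed levels of 705 and 2398 CPM. Osteocyte markers, 8 of 9 passing in mouse and 7 in rat, summed to 1242 to 2131 CPM in mouse calvaria and 7989 to 10810 in tibia, and to 564 and 7548 CPM in rat, where FGF23 had no reads. Of these markers, 6 lay below 0 and 2 above in mouse, and 6 below and 1 above in rat. Markers of pericytes and smooth muscle, 6 of 6 passing in both species, summed to 75.4 to 127 CPM in mouse calvaria and 138 to 146 in tibia, and to 18.8 and 82.3 CPM in rat. No osteocyte or pericyte marker was called in mouse (0 of 8 and 0 of 6 by edgeR's quasi-likelihood test), and 5 of 7 and 3 of 6 were past a log2 ratio of 2 in rat. Of all symbols, 0.0836% were called in mouse and 5.94% were past that ratio toward tibia in rat. Summed levels of endothelial, adipocyte and chondrocyte markers lay the same way in mouse with 0 called, at 89.2 to 115, 198 to 514 and 12.4 to 66.1 CPM in calvaria against 173 to 175, 1023 to 1323 and 496 to 610 in tibia. Of the markers passing, all 6 endothelial and all 4 adipocyte ones lay below 0, and 3 of 4 chondrocyte ones, with 1 above. Rat endothelial markers summed to 173 CPM in R1 and 419 in R3, and adipocyte ones to 458 and 491. Macaque adipocyte markers went the other way, at 1683 to 2558 CPM in calvaria against 682 to 1433 in tibia, with the 2 passing both called. The 1 macaque chondrocyte marker passing was also called higher in calvaria, and endothelial sums overlapped with 0 called. In macaque, where COX4I2 overlapped, 5 of 11 low-oxygen genes were called higher in tibia and 2 higher in calvaria. The part of any of these in the levels of COX4I2 and NDUFA4L2 was not tested.

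The muscle isoforms varied within each site in mouse. COX8B had 21.6 and 11.1 CPM in M4 and M8 and 2.44 and 15.6 in M5 and M7, and COX7A1 had 15.1 and 8.09 against 2.83 and 15.2. COX6A2 had 14.2 and 9.23 CPM in calvaria and 4.70 and 10.1 in tibia. The changes were 0.87, 0.37 and 0.67 (SE 0.84, 0.79 and 0.47), none called, and the sites overlapped for all 3. Skeletal muscle markers, 11 of 12 passing and 0 called, summed to 3789 CPM in M4, 2794 in M7, 2295 in M8 and 540 in M5. COX6A2 and COX8B had this order of libraries, and COX7A1 had it but for M7 and M4, which were nearly level. In rat COX6A2 had 2 reads in R1 and 99 in R3, a log2 ratio of -5.28 (95% counting interval -8.92 to -3.96), and COX8B had 4 and 70, a ratio of -4.05 (-6.27 to -2.93). The rat muscle markers, 11 of 12 passing, were at 10.7 CPM in R1 and 1317 in R3, with 10 of 11 past a log2 ratio of 2. The part of muscle RNA in these values was not tested. The general partners COX6A1, COX7A2 and COX8A were at -0.02, 0.33 and 0.17 in mouse and 0.33, 0.01 and 0.28 in rat. Of the testis isoforms, COX7B2 and COX8C had at most 4 reads in a mouse library and none in rat. COX6B2 had 23.5 and 42.0 CPM in mouse calvaria and 17.9 and 21.5 in tibia, a change of 0.74 (SE 0.33, adjusted p = 0.685 by edgeR), and 29 and 42 reads in R1 and R3.

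Toward calvaria, the mouse genes with the smallest p-values were ATP5E, NDUFB7 and UQCR11. ATP5E had 264 and 223 CPM in calvaria and 129 and 129 in tibia, a change of 0.92 (SE 0.20, adjusted p = 0.472 by edgeR's quasi-likelihood test). NDUFB7, an accessory subunit of complex I, had 40.7 and 64.1 CPM against 17.7 and 23.0, a change of 1.36 (SE 0.30, adjusted p = 0.472 by edgeR). UQCR11 had 75.2 and 81.3 CPM against 42.5 and 45.7, a change of 0.83 (SE 0.19, adjusted p = 0.477 by edgeR). All 3 genes stood without overlap, and the macaque counterparts ATP5E (0.87), NDUFB7 (1.29, under a LOC number) and UQCR11 (0.69, as UQCR) were called in the same direction. In rat they had ratios of -0.27, 0.10 and -0.03 by library size and 0.02, 0.39 and 0.25 by TMM factors.

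By complex, the mouse medians were 0.24 for complex I (37 genes), -0.00039 for II (4), 0.42 for III (8), 0.35 for IV (16) and 0.20 for V (20). In complex I, 32 of 37 genes were above 0, but among its 7 core subunits 4 were, with a median of 0.021. Core NDUFS7 had 138 and 121 CPM in calvaria and 87.1 and 98.3 in tibia (change 0.48, SE 0.20), while NDUFS1, NDUFS8 and NDUFV1 lay between -0.06 and 0.02 and NDUFV2 was at -0.27. SDHB, the iron-sulphur subunit of complex II, had 156 and 128 CPM in calvaria and 96.5 and 96.6 in tibia (change 0.56, SE 0.20, adjusted p = 0.638 by edgeR). The other subunits of complex II were close to 0, with SDHA at -0.11, SDHC at -0.03 and SDHD at 0.03. The 5 head subunits of complex V were all above 0, with ATP5A1 at 0.14, ATP5B at 0.19, ATP5C1 at 0.22, ATP5D at 0.35 and ATP5E highest. The membrane and stalk subunits ATP5F1 (-0.24, SE 0.21) and ATP5J (-0.13, SE 0.20) stood lower in calvaria without overlap, and neither was called. Of the c ring genes, ATP5G1 and ATP5G3 were at 0.50 and 0.42 (SE 0.25 and 0.26) and ATP5G2, with few reads, at -0.23 (SE 0.55), none of them called.

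**Figure D2:**
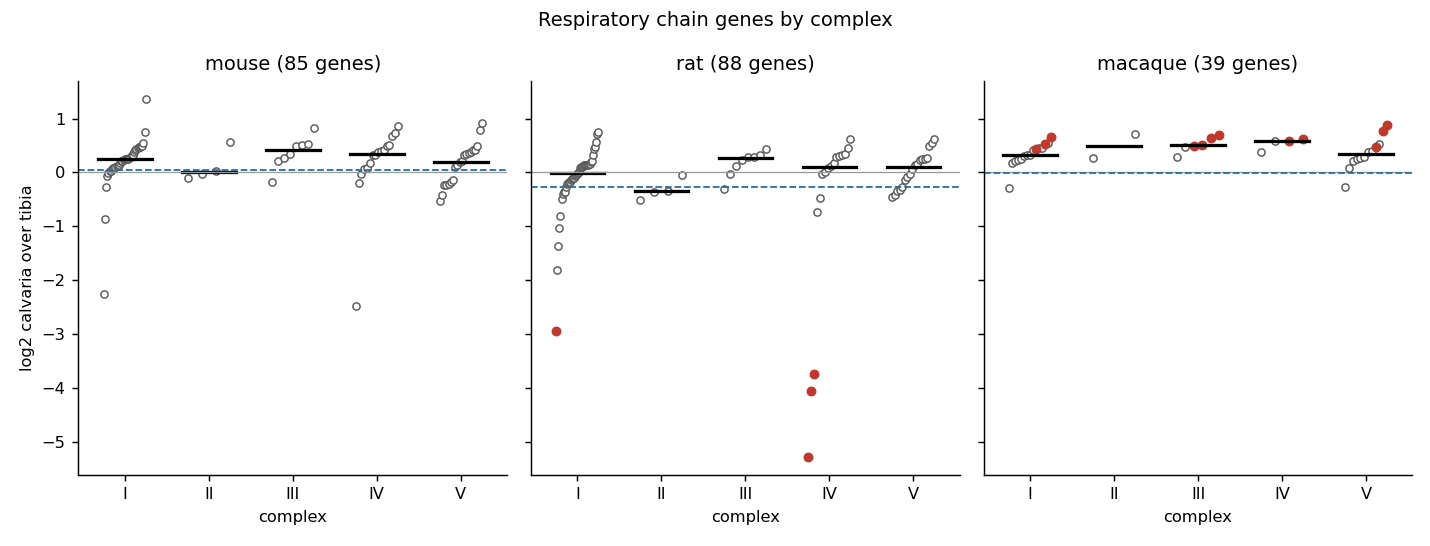
Log2 of calvaria over tibia for each tested gene of the chain by complex in mouse (85 genes), rat (88) and macaque (39), with black bars for medians and a dashed blue line for the median of all tested symbols (0.054, -0.28 and -0.0027). Filled red points are genes called by edgeR's quasi-likelihood test or, in rat, past a log2 ratio of 2, and they are 0 in mouse, 4 toward tibia in rat and 12 toward calvaria in macaque.

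One mouse gene stood apart in a single library. NDUFA12, an accessory subunit of complex I, had 40.9 CPM in M4, 37.9 in M5 and 39.2 in M7 but 1.07 in M8. Its change of -0.87 (SE 1.26, adjusted p = 0.862 by edgeR) rested on M8. Several mouse subunits had few reads in every library: NDUFS5 at most 0.274 CPM, ATP5G2 at most 1.08, NDUFS3 at most 3.69, COX5B at most 3.40, COX7C at most 5.32 and UQCRC1 at most 6.18. In rat COX5B and COX7C had 2692 and 1895 reads in R1, and UQCRC1 had 28. Many of these genes have processed copies elsewhere in the genome, so reads that match a gene and a copy may have been left out of the counts, and levels of such genes are uncertain.

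In rat, without replicates, the median of the chain depended on the scaling and lay above that of all symbols under both. Of the 88 genes with reads in both libraries, 4 were past a log2 ratio of 2, all higher in tibia and all named above (COX6A2, COX8B, COX4I2 and NDUFA4L2). That is 4.55%, against 5.94% of all 16671 symbols, and 0 were higher in calvaria, against 0.564%. The median ratio was 0.034 against -0.28 over all symbols, and 46 of 88 were above 0. With TMM factors the median of all symbols moved to 0.012, that of the chain to 0.32, and 66 of 88 were above 0. Relative to all symbols, complex III stood highest (median 0.26 by library size, 0.55 by TMM) and complex II lowest (-0.35 and -0.065). SDHA had 483 reads in R1 and 590 in R3 (ratio -0.51, counting interval -0.69 to -0.33), and UQCRH had 4232 and 2971 (ratio 0.29, 0.22 to 0.36). NDUFB9, the complex I gene with the highest level per length in rat, had 5123 and 3270 reads (ratio 0.43, 0.36 to 0.49). ATP5I, a membrane subunit with the highest level of complex V per length, had 4313 and 3772 reads (ratio -0.03, -0.09 to 0.04). The general subunits ran from -1.36 (NDUFS5, with 4 and 10 reads) to 0.75 (NDUFB1, with 387 and 197 reads, interval 0.50 to 1.01). The intervals cover counting error only.

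Levels per length had COX4I1 first in complex IV in both rodents, at 1097 CPM per kilobase in mouse and 1196 in rat. SDHD was first in complex II in both (234 and 268 CPM per kilobase). In mouse NDUFA6 led complex I (479), UQCRQ complex III (459) and ATP5B complex V (615). In macaque ATP5E led complex V (1881 CPM per kilobase) and COX6B1 complex IV (252). Levels of the macaque set depend on which genes carry a symbol.

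The change between sites was related to exonic length, among the genes of the chain and among all symbols. Spearman's rho between change and length was -0.36 over 85 mouse genes, -0.14 over 88 rat genes and -0.33 over 39 macaque genes, against -0.089, -0.17 and -0.22 over all tested symbols. Genes of 1 library share its depth and RNA quality and are not independent, so these are descriptions. Among macaque symbols under 600 bases 20.0% were called higher in calvaria and 6.18% higher in tibia, while at 5000 bases and more the shares were 8.63% and 29.5%. Within the same length, the macaque genes of the chain still lay higher: under 600 bases all 11 were above the median of 0.30 of all symbols of that length, with a median of 0.53. Between 600 and 1000 bases the medians were 0.39 for 12 genes of the chain and 0.24 for all symbols, and between 1500 and 2500 bases 0.44 for 9 and 0.025. In mouse the medians under 600 bases were alike, 0.35 for 30 genes and 0.36 for all 701 symbols, and between 600 and 1000 bases they were 0.32 for 22 genes and 0.18. In rat they were 0.10 for 37 genes and -0.10 under 600 bases, and 0.066 for 22 genes and -0.062 between 600 and 1000.

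**Figure D3:**
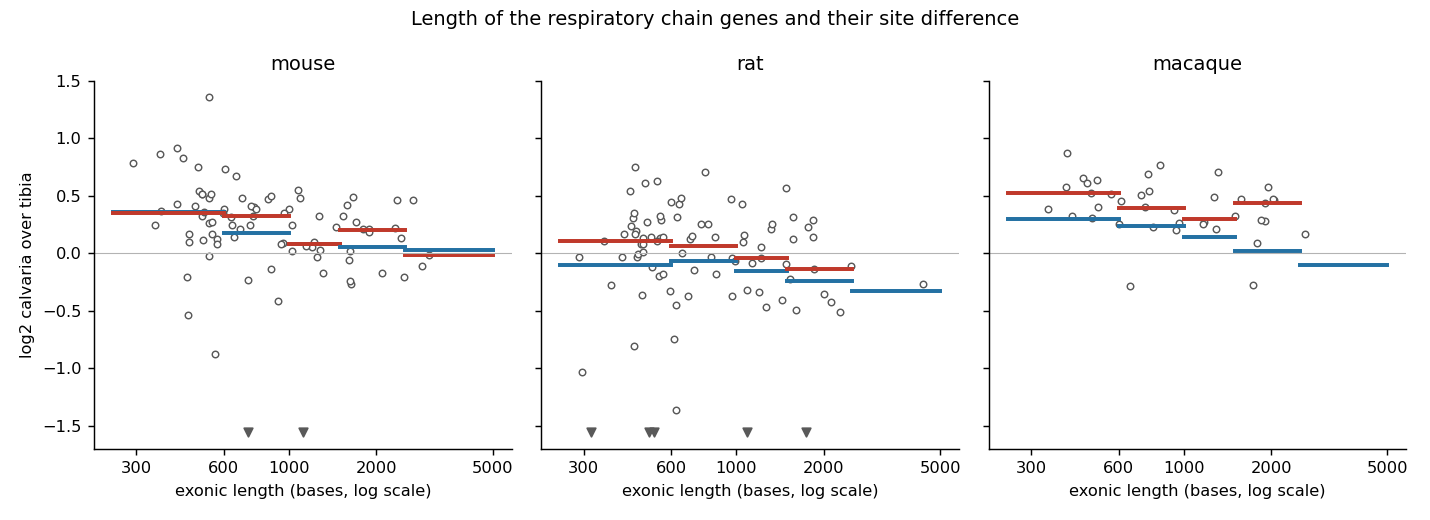
Log2 of calvaria over tibia against exonic length (bases, log scale) for the tested genes of the chain in mouse, rat and macaque, with triangles for genes below the axis. Horizontal bars are medians per length bin, red for the genes of the chain (bins of 3 or more) and blue for all symbols, and under 600 bases these medians are 0.35 and 0.36 in mouse, 0.10 and -0.10 in rat, and 0.53 and 0.30 in macaque.

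Short and long genes were found at a range of changes. In mouse ATP5K (292 bases), a membrane subunit of the synthase, had 17.4 and 10.2 CPM in calvaria and 7.88 and 8.07 in tibia (change 0.79, SE 0.36), and NDUFA3 (349 bases) had 111 and 99.0 against 88.1 and 89.1 (change 0.25, SE 0.19). The longest, NDUFS1 (3021 bases), was at -0.01 (SE 0.23), while NDUFA11 (2661 bases) was at 0.46 (SE 0.21). In macaque the shortest were COX7AH (343 bases), COX5A (395 bases) and ATP5E (399 bases), and the longest NDUFS1 (2604 bases).

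With the length offset, fewer macaque genes were called: 5 of 39 were called higher in calvaria (12.8%, against 12.6% of all symbols) and 1 higher in tibia (against 14.2%). Without COX4NB, which is no subunit, 4 of the 36 general subunits were called higher in calvaria. The 5 were ATP5E (0.60, adjusted p = 0.0575 by edgeR's quasi-likelihood test), ATP5L (0.50, adjusted p = 0.129 by edgeR), COX4NB (0.49, adjusted p = 0.0540 by edgeR), NDUFA1 (0.38, adjusted p = 0.172 by edgeR) and UQCRH (0.35, adjusted p = 0.190 by edgeR). The gene higher in tibia was NDUFS4, a subunit of the NADH-oxidising arm of complex I, at -0.56 (adjusted p = 0.0692 by edgeR), with 86.9, 90.8 and 102 CPM in calvaria and 101, 88.1 and 151 in tibia, where T2 alone was high. The median of the 39 genes was 0.19 with the offset, against -0.044 over all symbols, and 33 of 39 were above 0. Over the 32 genes under LOC numbers, 6 were called with the offset, 5 of them higher in calvaria and SDHA higher in tibia, with a median of 0.23. With block and offset together 11 of 39 were called, 10 of them higher in calvaria, where 16.6% of all symbols were. In mouse the median fell from 0.25 to 0.18, against 0.082 over all symbols, and COX4I2 became the 1 gene called of 85 (-2.59, adjusted p = 0.196 by edgeR), where 0.227% of all symbols were called.

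**Figure D4:**
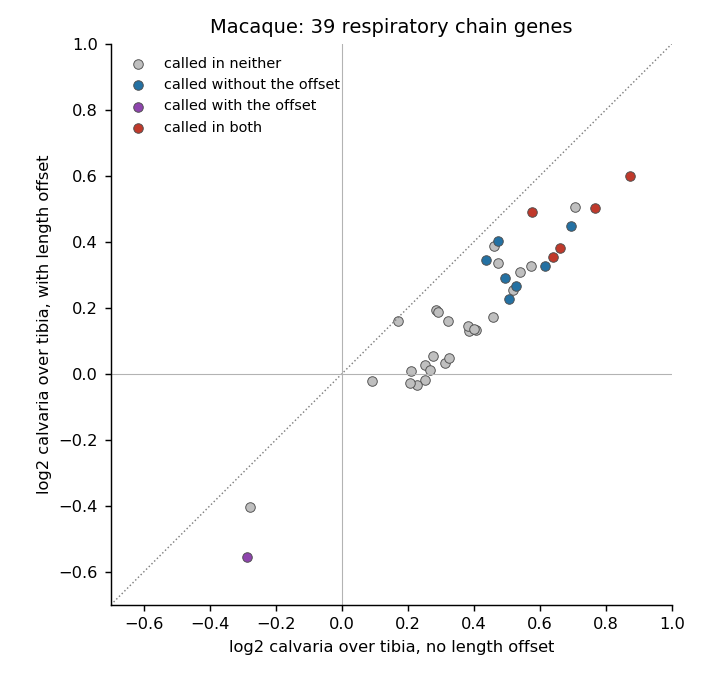
Change between sites of the 39 macaque genes without (x axis) and with (y axis) the length offset, both as log2 of calvaria over tibia, with a dotted line of equality and colours for the calls. All points lie below the line, the median moves from 0.41 to 0.19, and 5 genes are called in both fits.

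Mouse and macaque were also compared in 1 fit. Of the 36 genes of the chain with reads in all 10 libraries, 29 were above 0 in both species, and 0 had a change that differed between the species by edgeR's quasi-likelihood test of the interaction, where 6.68% of 6440 symbols did. None of the 36 had an unadjusted p under 0.05. The smallest p was that of NDUFS4, whose macaque minus mouse difference was -0.57 (SE 0.32, adjusted p = 0.433 by edgeR). With the length offset this difference became -0.97 (adjusted p = 0.109 by edgeR) and was the 1 call. The p-values do not show that the species act alike. Species cannot be told apart from sequencing lane, genome and annotation here, since the rodent libraries were run on 1 lane and the macaque libraries on another. Of 34 genes tested in all 3 species, 18 were above 0 in each with rat scaled by library size and 24 with rat scaled by TMM factors.

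Other genes of the pathway are given by list, with no test between lists. Of all symbols, 0.0836% were called in mouse, and in macaque 14.8% were called higher in calvaria and 14.0% higher in tibia. Cytochrome c1 (CYC1, the electron carrier of complex III that the symbol rule leaves out) had 148 and 146 CPM in mouse calvaria and 107 and 104 in tibia, a change of 0.48 (SE 0.18, adjusted p = 0.655 by edgeR), and a rat ratio of 0.42. Cytochrome c and its neighbours gave 0 of 7 calls in mouse and 0 of 4 in macaque, with medians of 0.19 and 0.092, and a rat median of 0.23 (0.52 by TMM factors). Of 45 assembly factors, which build the complexes, 40 were tested in mouse with 0 called and a median of 0.015, and 6 in macaque with 1 called (ACAD9, higher in calvaria). The citric acid cycle gave 0 calls of 16 in mouse and 2 of 12 in macaque, OGDH higher in calvaria and PDHB higher in tibia, with medians of 0.12 and 0.068. Regulators of mitochondrial genes gave 0 of 13 in mouse and 2 of 6 in macaque (NFE2L2 higher in calvaria, TFB1M higher in tibia), with medians of 0.0096 and -0.014. Proteins of the mitochondrial ribosome, with a median exonic length of 1121 bases in mouse and 1092 in macaque, gave 0 calls of 77 (median 0.18) and 8 of 44, 7 of them higher in calvaria (median 0.24). Proteins of the cytosolic ribosome, likewise short, gave 0 of 84 (median 0.25) and 4 of 18, all higher in calvaria (median 0.38). With the length offset the macaque medians of the mitochondrial and cytosolic ribosome fell to -0.0013 and 0.11, beside 0.19 for the respiratory chain.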

How the data were processed

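Poly(A)+ RNA of the 12 bone samples was sequenced by the authors, mapped with HISAT2 per the paper (the submitters' processing notes name BWA 0.7.10-r789) and counted with HTSeq-count on merged exons without regard to strand, on mm10 and rn6 in rodents. The deposited tables hold raw read counts per gene, which were used as they stand, a normalized CPM signal of the authors, which was not used, and other columns, of which the deposited exonic length was used. Rows with 1 symbol were summed, and rows naming no gene (0.00261% to 0.0663% of reads) were left out.

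Mouse and macaque were each fitted with edgeR 4.0.16 in R 4.3.3 on genes with a read in every library (TMM, glmQLFit and glmQLFTest, Benjamini-Hochberg). SE is the size of the log2 change divided by the square root of F. The biological coefficient of variation (common dispersion) came to 0.316 for mouse, 0.267 for macaque. P-values measure the spread between these libraries. The rat ratio used CPM with 1 read added. The length offset was a natural spline of 4 degrees of freedom in log2 exonic length per library. Alternatives were DESeq2 1.42.0, edgeR's exact test, other scalings and filters, a replicate block and leaving out each library. The pairing was checked on residuals from the site means over 10992 macaque genes: r was 0.218, 0.293 and 0.457 within the assumed pairs and -0.365 to 0.089 between other libraries of unlike site. Residuals of a site cancel over its libraries, so positive values within pairs force some negative ones elsewhere. The contrast alone therefore does not establish the pairs. In mouse this check is uninformative. The quasi-likelihood site tests with and without the length offset, the interaction without it and the rat ratio by library size were tested on simulated data. The other alternatives were not. The members and lists were chosen with earlier results of these data known. Genes named by rule were the SDH genes, the complex I core, head, c ring and isoform lists, the 3 smallest p-values per direction, the highest level per length by complex, and the 3 shortest and longest. A gene that the rule would name is not reported here. Called genes, NDUFA12 and genes with few reads were named after their values were seen. Python 3.11.15 was used for summaries.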

Additional observations from a re-analysis of the deposited data

How the results depend on the processing

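In mouse, where the main test called 0 genes of the chain, the filter of 1 read in any library, the exact test and DESeq2 called 4 each, the length offset (also when fitted without these genes) 1, and the replicate block with length offset 2. The block alone gave 0. Leaving out 1 library gave 0 to 32 calls and a median of 0.14 to 0.34. In macaque, where 12 were called, library size alone gave 7, an adjusted p under 0.05 gave 6, a log2 change over 1.1 gave 0, the length offset (either form) 6 with a median of 0.19, the replicate block 22, the letter as batch 22 and RefSeq names 26. Leaving out 1 library gave 6 to 28. The interaction gave 1 call with the length offset and 0 to 1 without 1 library. In rat a log2 ratio past 1 gave 7 genes, and the median was 0.32 with TMM factors and 0.26 with the length offset. The share of all symbols called also changed between settings, and it is given above for some settings only. These counts alone are therefore no result about the genes of the chain. Which libraries share an animal is not stated, and the cause of these shifts was not tested.

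Signs turned for some named genes that were not called under the settings that turned them. In mouse, library size alone gave -0.001 for NDUFS3, -0.063 for NDUFS8 and -0.056 for SDHD. The length offset, the offset fitted without these genes, and block with offset gave -0.013, -0.009 and -0.016 for NDUFA3, 0.036, 0.036 and 0.028 for NDUFS1, and -0.024, -0.023 and -0.026 for NDUFS8. In macaque they gave -0.021, -0.020 and -0.018 for ATP5B and -0.027, -0.026 and -0.039 for NDUFV2, and library size alone gave -0.115 for ATP5B and -0.033 for NDUFS1. Leaving out 1 library gave ranges across 0 for ATP5D in macaque (-0.016 to 0.992, called at the upper end, without T2), COX6A1 in mouse (-0.22 to 0.13), COX7A1 in mouse (-0.391 to 2.028), NDUFS1 in mouse (-0.25 to 0.176), NDUFS3 in mouse (-0.193 to 0.406), NDUFS8 in mouse (-0.048 to 0.064), NDUFV1 in mouse (-0.321 to 0.136), SDHA in mouse (-0.223 to 0.011), SDHC in mouse (-0.133 to 0.046) and SDHD in mouse (-0.086 to 0.111).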
